A study of Mus musculus with 8 samples.

Results

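The cells described here are type 1 conventional dendritic cells (cDC1-like cells) captured when neonatal mouse liver, spleen and bone marrow were sorted for haematopoietic stem cells. A cell was taken as cDC1-like when it held at least 1 UMI (unique molecular identifier, a counted transcript molecule) of Clec9a, at least 1 of Irf8 and at least 1 of Cadm1 or Xcr1. It also had to hold none of Cd79a, Elane and Camp. Kept cells had 1000 genes and 2000 UMIs or more, with mitochondrial transcripts making up no more than 10% of the UMIs. The rule found 622 cDC1-like cells among 21227 kept cells of the 3 tissues: 466 in liver, 117 in spleen and 39 in bone marrow. The whole series held 37147 kept cells in 6 libraries.

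The 3 tissues came from wild-type (WT) mice at postnatal day 2 (P2), and each library was labelled as 7 merged samples of batch 1. Red cells were lysed, c-Kit-bearing cells were enriched on magnetic beads, and Epcr+Lin-Sca-1+Kit+ cells were sorted, a surface profile of haematopoietic stem cells. Each tissue was therefore 1 library of pooled animals, so no test between tissues was possible and no p-value is given. Every 95% interval covers counting error only and not the spread between animals. Shares carry Clopper-Pearson intervals, and levels are CPM, the UMIs of the cells summed and scaled to a common library total, with exact Poisson intervals. Median depth was 8172 UMIs per kept cell in liver, 7438 in spleen and 8275 in bone marrow, and 7515.5, 6155 and 5151 UMIs per cDC1-like cell of those tissues. The libraries shared 16 to 21 cell barcodes a pair, and no barcode was a cDC1-like cell in more than 1 library.

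cDC1 take up material from dying cells and present it on MHC class I to CD8 T cells, a process called cross-presentation. They arise from bone marrow precursors under the transcription factors Irf8, Batf3 and Id2, and they seed spleen, liver and other organs. Clec9a is a C-type lectin receptor for actin filaments exposed by dead cells, Xcr1 is the receptor for the chemokine Xcl1, and Cadm1 is an adhesion molecule. Clec9a is also found on dendritic cell precursors, so the rule can admit cells that are still differentiating.

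In GRCm38 (mm10), Clec9a lies at chr6:129408862-129424763 on the plus strand, where its annotation overlaps Clec1b and Gm43914 on the same strand, so reads in the overlap are uncertain. Irf8 lies at chr8:120736358-120756694 (plus), Cadm1 at chr9:47530173-47857637 (plus) and Xcr1 at chr9:123852315-123862029 (minus). The 250 bases before the annotated start, from RefSeq (GRCm38.p6), are shown for Clec9a, which anchors the rule, and for 3 MHC class II genes that were among the 25 furthest above the other cells. Their windows are chr6:129408612-129408861 (plus) for Clec9a, chr17:34287824-34288073 (minus) for H2-Aa, chr17:34305617-34305866 (plus) for H2-Eb1 and chr17:34152941-34153190 (plus) for H2-DMb1. All are written 5′ to 3′ along the gene, and capitals mark CCAAT on either strand, the core of the Y box of MHC class II promoters.
Clec9a: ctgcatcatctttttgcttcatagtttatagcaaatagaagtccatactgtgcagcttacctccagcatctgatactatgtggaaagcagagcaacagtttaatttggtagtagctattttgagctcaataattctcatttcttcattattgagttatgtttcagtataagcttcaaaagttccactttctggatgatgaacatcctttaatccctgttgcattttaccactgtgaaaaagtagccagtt
H2-Aa: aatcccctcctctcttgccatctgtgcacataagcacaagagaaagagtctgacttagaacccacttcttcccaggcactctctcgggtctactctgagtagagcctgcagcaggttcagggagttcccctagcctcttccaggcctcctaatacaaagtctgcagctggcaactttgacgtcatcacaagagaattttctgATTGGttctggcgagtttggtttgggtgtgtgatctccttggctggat
H2-Eb1: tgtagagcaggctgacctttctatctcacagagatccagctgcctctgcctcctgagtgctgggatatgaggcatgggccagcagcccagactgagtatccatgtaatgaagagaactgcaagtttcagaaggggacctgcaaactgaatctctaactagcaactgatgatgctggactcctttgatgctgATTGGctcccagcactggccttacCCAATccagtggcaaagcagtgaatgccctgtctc
H2-DMb1: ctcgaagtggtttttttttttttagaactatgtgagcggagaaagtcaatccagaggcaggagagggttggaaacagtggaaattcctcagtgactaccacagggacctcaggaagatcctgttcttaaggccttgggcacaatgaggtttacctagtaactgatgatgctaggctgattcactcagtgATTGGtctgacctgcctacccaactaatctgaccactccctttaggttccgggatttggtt
CCAAT occurred in 7 of the 9 genes of a 12-gene MHC class II list that have a promoter in the table, and in 33.8% of 32851 promoters of the same length. Of the 25 genes furthest above the other cells 17 have a promoter there, and 7 of these held CCAAT. Clec9a held none. TGANTCA, the core bound by AP-1 factors, the family of Batf3, was not in this window of Clec9a on either strand and was in 6.75% of all promoters. H2-DMb1 held it, without overlap with CCAAT. These are matches of letters, not shown binding sites.

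The rule genes chose the cells, and their levels are a description. Clec9a was at 590 CPM in liver, 387 in spleen and 395 in bone marrow cDC1-like cells, against 12.0, 1.06 and 0.822 CPM in the other kept cells of those tissues. Irf8 was at 1947 CPM in liver, 1640 in spleen and 1748 in bone marrow cDC1-like cells, against 177, 61.8 and 85.0 CPM in other cells. Cadm1 was at 1663 CPM in liver, 1037 in spleen and 738 in bone marrow cDC1-like cells, against 37.5, 7.30 and 2.91 CPM in other cells. The median liver, spleen and marrow cell held 4, 2 and 2 UMIs of Clec9a, 15, 11 and 9 of Irf8 and 10, 6 and 3 of Cadm1. Xcr1 was at 334 CPM in liver, 312 in spleen and 119 in bone marrow cDC1-like cells, against 7.88, 1.44 and 0.372 CPM in other cells. Cadm1 was present in all but 1 cDC1-like cell of each tissue, so it admitted nearly all of them, whereas Xcr1 was present in 328 of 466, 86 of 117 and 17 of 39.

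At the edge of the rule, 60 liver, 31 spleen and 16 marrow cells were inside with a single UMI of Clec9a. Just outside, 136 liver, 20 spleen and 8 marrow cells met everything except that Cd79a, Elane or Camp was present. Of those 136 liver cells, 75 held only 1 UMI of the 3 genes in all, and Elane was seen in 40.3% of all kept liver cells. A further 72, 75 and 33 cells had Irf8 and Cadm1 or Xcr1 but no Clec9a, and 11, 11 and 15 had Clec9a and Irf8 but neither Cadm1 nor Xcr1.

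The cell type label was read against 20 cDC1 genes that the rule does not use. The median cDC1-like cell held 15 of them in liver, 14 in spleen and 13 in bone marrow, and the median other kept cell held 2 in each tissue. With each cell thinned to 2500 UMIs, the medians were 10 in cDC1-like cells and 1 in other cells of each tissue. The name fits most but not all cells: 1 liver cell held none of the 20 genes and 1 marrow cell held 1. The cells stopped only by Cd79a, Elane or Camp had medians of 15, 15 and 13.5 genes, those without Clec9a had medians of 4.5, 3 and 4, and those with neither Cadm1 nor Xcr1 had medians of 7, 3 and 10.

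**Figure D1:**
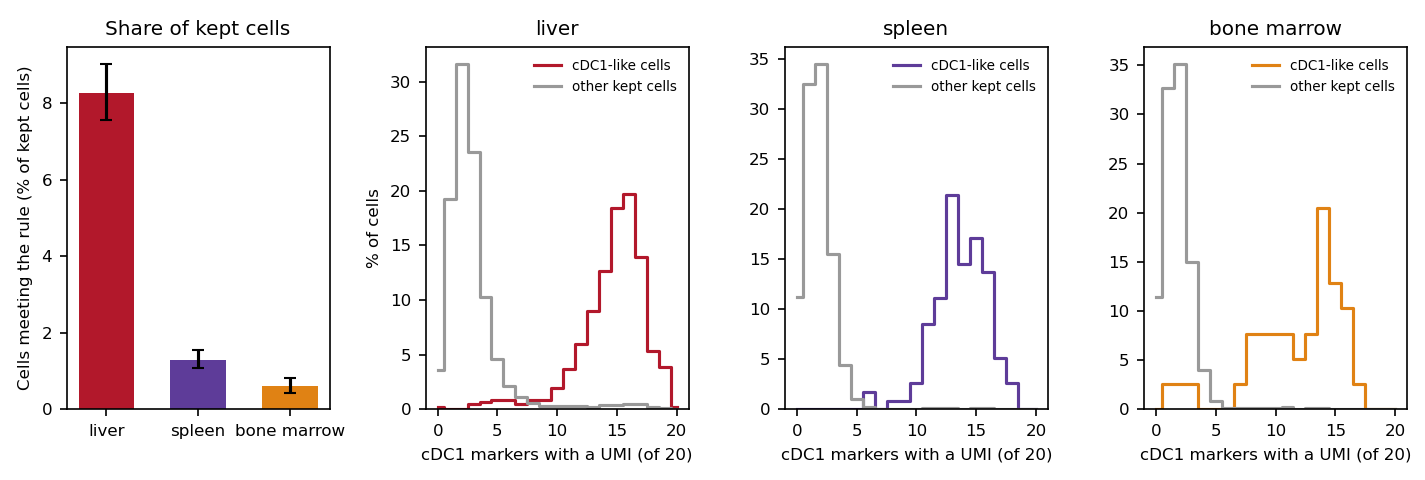
Left, share of kept cells that met the rule (bars, %) with exact 95% binomial intervals, by tissue. The other panels show how many of 20 cDC1 genes outside the rule a cell held (x axis) as a percentage of cells (y axis), for cDC1-like cells (coloured) and other kept cells (grey); medians are 15, 14 and 13 in liver, spleen and bone marrow cDC1-like cells and 2 in other cells.

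cDC1-like cells made up 8.27% of kept liver cells (95% interval 7.56% to 9.02%, 466 of 5634), 1.29% of spleen cells (1.07% to 1.55%, 117 of 9043) and 0.595% of marrow cells (0.424% to 0.813%, 39 of 6550). The intervals do not overlap, and liver stayed above spleen and spleen above bone marrow under all 7 alternatives tried for filter, depth, rule and doublets. These are shares of an enriched and sorted fraction, not of the organ.

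Clec9a transcripts were also found in cells of another lineage, more often in liver. In cells with Cd79a and Cd79b, which mark the B lineage and should lack Clec9a, Clec9a was seen in 104 of 2080 liver cells, 0.452% of 1991 spleen cells and 0.175% of 1142 marrow cells, with median depths of 5034.5, 3800 and 5628 UMIs. Naaa was seen in 15.0% of such cells in liver, 5.98% in spleen and 1.40% in bone marrow. Whether free RNA or doublets gave these UMIs, and their part in the tissue order of shares, was not tested.

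The transcripts behind the sort were also read. Kit was seen in 30.9% of liver, 32.5% of spleen and 23.1% of marrow cDC1-like cells, and was at 62.3 CPM in liver, 73.4 in spleen and 48.3 in bone marrow cDC1-like cells, against 83.7, 113 and 113 CPM in other cells. Ly6a, which encodes Sca-1, was at 28.1 CPM in liver, 21.7 in spleen and 4.39 in bone marrow cDC1-like cells, against 9.57, 21.9 and 21.0 CPM in other cells. Procr, which encodes Epcr, was at 2.37 CPM in liver, 13.2 in spleen and 4.39 in bone marrow cDC1-like cells, against 1.495, 5.95 and 6.84 CPM in other cells. Procr was thus scarce on both sides of the comparison.

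Against the other cells of their library, cDC1-like cells stood out by antigen presentation genes. The other cells were all kept cells outside the rule. They included the cells stopped only by Cd79a, Elane or Camp, with medians of 15, 15 and 13.5 of the 20 cDC1 genes. How far such cells raised the levels of the other cells was not tested. Genes were read where they reached 50 CPM in cDC1-like cells, or in other cells, of every library. Of 3916 such genes, 442 were at least 2-fold higher in all 3 libraries (11.3%) and 258 at least 2-fold lower (6.59%), with 10 CPM added to both sides. The cells were chosen on the same counts, so these are descriptions. A gene high in cDC1-like cells alone passes the level filter through them and had to be higher, so gene lists are given by their sums over all members and not by counts of genes that passed. The 25 genes with the largest smallest fold ran from 29.8-fold (Plbd1) to 14.0-fold (Olfm1).

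MHC class II genes were the main block among the 25. H2-Ab1, a class II chain, was at 5167 CPM in liver, 5738 in spleen and 4810 in bone marrow cDC1-like cells, against 187, 74.7 and 31.8 CPM in other cells. Cd74, the invariant chain that guards the class II groove, was at 7870 CPM in liver, 9035 in spleen and 7217 in bone marrow cDC1-like cells, against 420, 319 and 48.6 CPM in other cells. Ciita, the master activator of class II transcription, was at 499 CPM in liver, 396 in spleen and 378 in bone marrow cDC1-like cells, against 14.7, 6.40 and 1.81 CPM in other cells. The 12 genes of the class II list summed to 23408 CPM in liver, 25789 in spleen and 21854 in bone marrow cDC1-like cells, against 1207, 764 and 259 CPM in other cells. March1, a ubiquitin ligase that takes class II off the surface, was at 760 CPM in liver, 603 in spleen and 655 in bone marrow cDC1-like cells, against 28.2, 29.4 and 4.22 CPM in other cells. H2-Aa, H2-Eb1 and H2-DMb1, whose promoters are shown above, were also among the 25.

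The other leading genes were of several kinds. Plbd1, a phospholipase-B-like protein, was at 1418 CPM in liver, 1406 in spleen and 1125 in bone marrow cDC1-like cells, against 38.0, 8.53 and 5.46 CPM in other cells. Naaa, a lysosomal lipid amidase, was at 1561 CPM in liver, 1356 in spleen and 1239 in bone marrow cDC1-like cells, against 44.9, 9.35 and 5.12 CPM in other cells. Cst3, the protease inhibitor cystatin C, was at 19372 CPM in liver, 20450 in spleen and 17870 in bone marrow cDC1-like cells, against 1079, 307 and 410 CPM in other cells. Id2, an inhibitor of E proteins that cDC1 need, was at 1259 CPM in liver, 796 in spleen and 1037 in bone marrow cDC1-like cells, against 69.8, 19.0 and 15.4 CPM in other cells. Zfp366, a dendritic cell zinc finger factor, was at 499 CPM in liver, 380 in spleen and 299 in bone marrow cDC1-like cells, against 14.9, 2.89 and 1.40 CPM in other cells. The 25 also held Cdk14, Pid1, Tbc1d9, Shtn1, Ifi205, Itgae, Rab7b, Aif1, Htr7, Ckb, Mpeg1 and Tlr3.

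**Figure D2:**
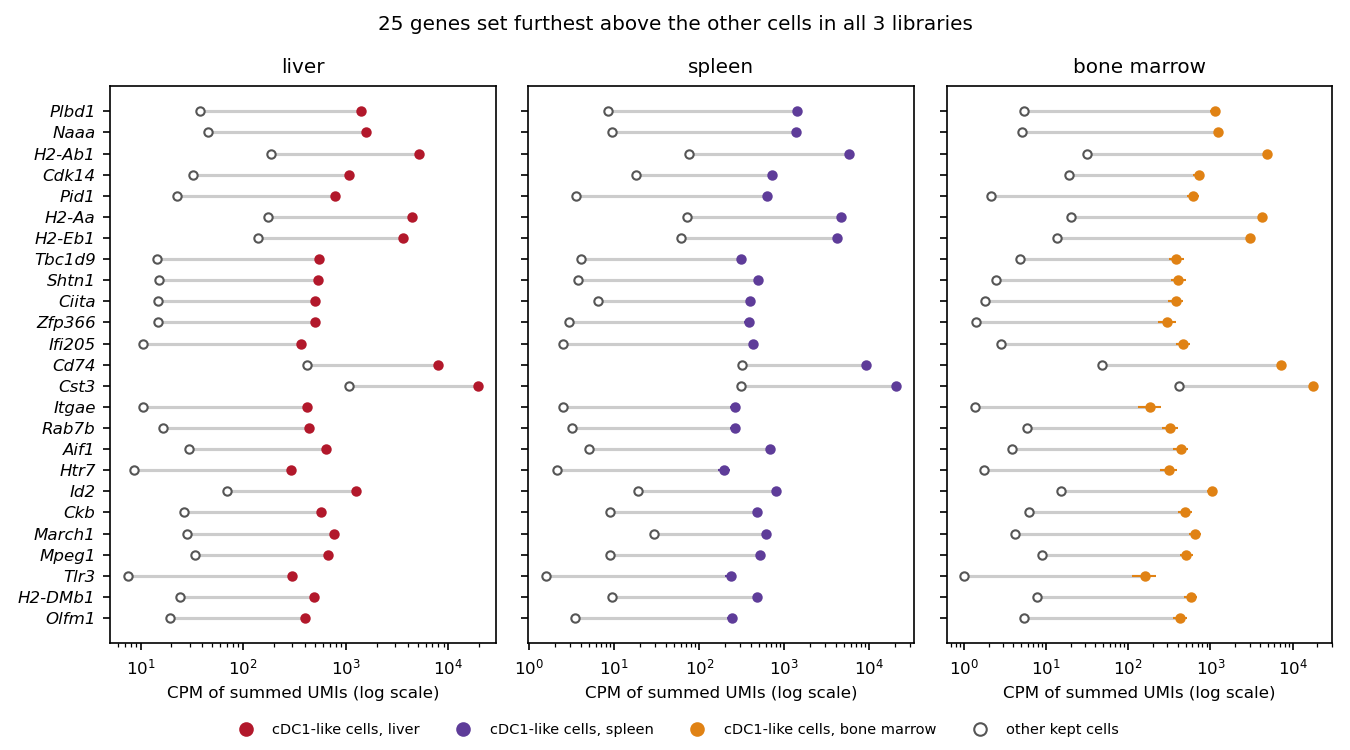
CPM of summed UMIs (log scale) of the 25 genes furthest above the other cells in all 3 libraries, in cDC1-like cells (coloured, exact 95% Poisson intervals) and in other kept cells (open circles). Each coloured point lies right of its open circle, and the smallest fold among the 25, with 10 CPM added, is 14.0 (Olfm1).

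The 20 cDC1 genes outside the rule summed to 10230 CPM in liver, 8289 in spleen and 7613 in bone marrow cDC1-like cells, against 760, 490 and 399 CPM in other cells. Batf3, the factor that maintains Irf8 in this lineage, was at 271 CPM in liver, 260 in spleen and 246 in bone marrow cDC1-like cells, against 11.1, 2.01 and 2.57 CPM in other cells. Wdfy4, which cross-presentation of cell-bound antigen requires, was at 2365 CPM in liver, 1625 in spleen and 1608 in bone marrow cDC1-like cells, against 189, 99.4 and 114 CPM in other cells. Tlr3, the sensor of double-stranded RNA, was at 302 CPM in liver, 235 in spleen and 158 in bone marrow cDC1-like cells, against 7.49, 1.56 and 1.01 CPM in other cells. Tlr11, a mouse sensor of Toxoplasma profilin, was at 101 CPM in liver, 96.2 in spleen and 39.5 in bone marrow cDC1-like cells, against 1.92, 0.394 and 0.0465 CPM in other cells. The 19 nucleic acid and microbial sensors summed to 1106 CPM in liver, 908 in spleen and 922 in bone marrow cDC1-like cells, against 289, 217 and 257 CPM in other cells.

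Class I and cross-presentation genes followed, with members on either side of the other cells. The 19 genes summed to 8127 CPM in liver, 7043 in spleen and 6356 in bone marrow cDC1-like cells, against 2367, 1923 and 2180 CPM in other cells. Rab43, a GTPase of cross-presentation, was at 873 CPM in liver, 556 in spleen and 668 in bone marrow cDC1-like cells, against 65.0, 36.3 and 41.9 CPM in other cells. Tap1, a subunit of the peptide transporter, was at 180 CPM in liver, 164 in spleen and 176 in bone marrow cDC1-like cells, against 30.6, 23.8 and 25.8 CPM in other cells. Sec22b, a vesicle fusion protein, was at 33.1 CPM in liver, 33.7 in spleen and 30.7 in bone marrow cDC1-like cells, against 41.9, 35.8 and 40.8 CPM in other cells. Cybb, a NADPH oxidase subunit, was at 6.57 CPM in liver, 1.203 in spleen and 4.39 in bone marrow cDC1-like cells. The other cells were at 48.9, 18.5 and 10.7 CPM. The spleen and marrow levels were 1 UMI each, so Cybb can be read as below the other cells in liver and spleen only.

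Among fate regulators and receptors, Zbtb46, a factor of conventional dendritic cells, was at 273 CPM in liver, 214 in spleen and 211 in bone marrow cDC1-like cells, against 18.2, 19.1 and 8.25 CPM in other cells. Flt3, the cytokine receptor that dendritic cell development depends on, was at 373 CPM in liver, 214 in spleen and 277 in bone marrow cDC1-like cells, against 48.6, 61.5 and 94.7 CPM in other cells. Zeb2, which opposes the cDC1 fate, was at 71.8 CPM in liver, 21.7 in spleen and 158 in bone marrow cDC1-like cells, against 429, 261 and 317 CPM in other cells. It was seen in 10.3% of liver, 9.40% of spleen and 10.3% of marrow cDC1-like cells, which in bone marrow was 4 cells. A single marrow cell held 41.7% of the marrow Zeb2 UMIs, and without it the level was 96.5 CPM. Irf4, of the cDC2 lineage, was at 2.10 CPM in liver, 0 in spleen and 4.39 in bone marrow cDC1-like cells, against 21.5, 7.52 and 5.74 CPM in other cells. The marrow level of Irf4 was 1 UMI. A list of 13 cDC2 genes summed to 262 CPM in liver, 165 in spleen and 435 in bone marrow cDC1-like cells. In other cells this list was at 407, 222 and 347 CPM, so only bone marrow was above them. Without the marrow cell that held most of its UMIs the list was at 366 CPM in marrow cDC1-like cells.

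Maturation genes were split. Cd86, a costimulatory ligand, was at 293 CPM in liver, 254 in spleen and 136 in bone marrow cDC1-like cells, against 16.9, 10.4 and 8.95 CPM in other cells. Ccr7, the receptor that takes matured dendritic cells to lymph nodes, was at 0.526 CPM in liver, 0 in spleen and 0 in bone marrow cDC1-like cells, against 14.6, 7.77 and 2.31 CPM in other cells. Ccr7 was seen in 1 of the 622 cells, and Fscn1, another maturation gene, in 4. The 21 maturation genes summed to 741 CPM in liver, 605 in spleen and 373 in bone marrow cDC1-like cells, against 584, 216 and 246 CPM in other cells.

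Lists of other lineages differed. The neutrophil, B cell and erythroid lists lay below the other cells in each tissue. The monocyte list lay above them, but in liver only through 1 cell. The rule removed cells with Cd79a, Elane or Camp and left them among the other cells. Low neutrophil and B cell sums in cDC1-like cells were therefore set in part by the rule and are no evidence on lineage. The neutrophil list summed to 150 CPM in liver, 74.6 in spleen and 215 in bone marrow cDC1-like cells, against 9172, 2123 and 5326 CPM in other cells. The B cell list summed to 152, 130 and 158 CPM in cDC1-like cells, most of it Ighm, against 2733, 1246 and 1286 CPM in other cells. The erythroid list summed to 306, 550 and 149 CPM in cDC1-like cells, against 2124, 3501 and 2165 CPM in other cells. The monocyte and macrophage list summed to 730 CPM in liver, 314 in spleen and 799 in bone marrow cDC1-like cells, against 685, 168 and 286 CPM in other cells. Without the cell of each tissue that held most of its UMIs, this list was at 679, 301 and 698 CPM in cDC1-like cells. The plasmacytoid list summed to 434 CPM in liver, 271 in spleen and 773 in bone marrow cDC1-like cells, against 653, 530 and 510 CPM in other cells, and without the marrow cell that held most of its UMIs it was at 540 CPM in marrow cDC1-like cells. Single cells carried part of the spleen values: 1 spleen cell held 34.8% of the erythroid UMIs and 1 held 96.1% of the 77 mast cell and basophil UMIs. Scrublet, a doublet caller, placed 28 liver, 13 spleen and 2 marrow cDC1-like cells among its highest scores, out of 377 of 5634 kept liver, 886 of 9043 spleen and 520 of 6550 marrow cells so placed.

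Between tissues, most genes of cDC1-like cells lay within 2-fold. Summed UMIs of cDC1-like cells were compared over genes with at least 20 UMIs in the pair. These sums were 3803708 UMIs in liver, 831348 in spleen and 227651 in bone marrow. Genes near the limit can pass 2-fold by counting error against the smaller sum, more so with bone marrow. A gene with 0 UMIs in 1 tissue of the pair was counted as 2-fold apart. Of 9835 genes, 6.76% were at least 2-fold higher in liver than in spleen and 1.89% lower. Of 9612 genes, 12.7% were higher in liver than in bone marrow and 5.65% lower. Of 6420 genes, 5.78% were higher in spleen than in bone marrow and 5.28% lower. By TMM scaling, which moved the median of all genes by over 0.1 on the log2 scale, the share of calls that were higher in spleen over bone marrow was 70.7%, against 52.3% by summed UMIs.

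None of the 20 cDC1 genes was 2-fold apart between liver and spleen, against 6.76% of all genes higher in liver and 1.89% lower. In a list of 20 genes such shares would give few, so the count does not set these genes apart. They summed to 10230 CPM in liver, 8289 in spleen and 7613 in bone marrow, and the class II list to 23408, 25789 and 21854 CPM. In liver over bone marrow 5 of 20 cDC1 genes were 2-fold higher, and in spleen over bone marrow 2 of 19. The shares over all genes were 12.7% and 5.78%.

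Id3, an inhibitor of E-protein transcription factors, set liver furthest from spleen. It was at 365 CPM in liver, 1.203 in spleen and 74.7 in bone marrow cDC1-like cells, against 57.1, 22.1 and 23.9 CPM in the other kept cells of those tissues. It was seen in 366 of 466 liver, 1 of 117 spleen and 5 of 39 marrow cells, and the spleen cell held a single UMI. The ratio was 304 (95% interval 54.4 to 11999) for liver over spleen and 4.89 (95% interval 3.04 to 8.42) for liver over bone marrow. The other liver cells were also above the other spleen cells, by a smaller ratio.

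Ccr2, the receptor that brings monocytes and precursors out of blood, was lowest in spleen. It was at 230 CPM in liver, 31.3 in spleen and 180 in bone marrow cDC1-like cells, against 43.6, 13.2 and 18.9 CPM in other cells, and was seen in 269 of 466 liver, 16 of 117 spleen and 21 of 39 marrow cells. The ratio was 7.35 (95% interval 4.98 to 11.3) for liver over spleen and 0.174 (95% interval 0.102 to 0.291) for spleen over bone marrow. Cd34, a glycoprotein of progenitors and endothelium, was at 131 CPM in liver, 19.2 in spleen and 35.1 in bone marrow cDC1-like cells, against 58.0, 90.4 and 151 CPM in other cells, and was seen in 257 of 466 liver, 7 of 117 spleen and 4 of 39 marrow cells. Liver was the highest of the 3 tissues for Cd34 in cDC1-like cells and the lowest in other cells. The ratio of liver over spleen was 6.80 (95% interval 4.15 to 12.0) in cDC1-like cells.

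Fosb and Fos, immediate early genes, were low in spleen and not in bone marrow. Fosb was at 52.1 CPM in liver, 2.41 in spleen and 48.3 in bone marrow cDC1-like cells, against 4.10, 1.23 and 12.1 CPM in other cells. Fos was at 179 CPM in liver, 52.9 in spleen and 193 in bone marrow cDC1-like cells, against 14.0, 3.40 and 21.6 CPM in other cells. The immediate early and heat shock list summed 1.41 times as high in liver as in spleen (1.31 to 1.51). Of its genes 5 of 15 were 2-fold higher, against 6.76% of all genes. The interferon response list was also lowest in spleen, at 822 CPM in liver, 534 in spleen and 940 in bone marrow cDC1-like cells, or 732 in bone marrow without the cell that held most of its UMIs. Its ratio was 1.54 (1.39 to 1.70) for liver over spleen and 0.568 (0.482 to 0.672) for spleen over bone marrow.

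Some genes of the liver side moved with RNA in the other liver cells, and its part in the result was not tested. Fabp1, a fatty acid carrier of hepatocytes, was at 26.3 CPM in liver, 0 in spleen and 0 in bone marrow cDC1-like cells, against 15.7, 0.0119 and 0 CPM in other cells. The 10 hepatocyte genes summed to 96.5 CPM in liver, 44.5 in spleen and 35.1 in bone marrow cDC1-like cells, against 112, 20.9 and 30.5 CPM in other cells, and 9 of the 10 were at 0 in cDC1-like cells of spleen and of bone marrow. The monocyte and macrophage list summed 2.32 times as high in liver as in spleen (2.05 to 2.65), and in the other cells 4.08 times. In cDC1-like cells 10 of its 14 genes compared were 2-fold higher, against 6.76% of all genes. Bone marrow was not below liver for this list, with a ratio of 0.913 (0.785 to 1.07) for liver over bone marrow and 0.393 (0.324 to 0.477) for spleen over bone marrow. A single liver cell held 62.9% of the Ccl22 UMIs, and the share in a single cell was 37.9% for C1qa. For Id3, Ccr2 and Cd34 the largest shares were 1.51%, 1.37% and 2.21%.

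Spleen was marked by Cd8a, the co-receptor chain that resident cDC1 of mouse lymphoid organs carry. It was at 2.37 CPM in liver, 40.9 in spleen and 0 in bone marrow cDC1-like cells, against 0.884, 3.99 and 0.155 CPM in the other kept cells of those tissues, and was seen in 7 of 466 liver, 23 of 117 spleen and 0 of 39 marrow cells. The ratio was 0.0579 (95% interval 0.0244 to 0.123) for liver over spleen. Adam23, a membrane protein with a disintegrin domain, was at 11.8 CPM in liver, 114 in spleen and 4.39 in bone marrow cDC1-like cells, against 1.41, 0.896 and 0.0930 CPM in other cells, and was seen in 24 of 466 liver, 41 of 117 spleen and 1 of 39 marrow cells. Both were highest in spleen.

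Cxcl9, a chemokine that attracts T cells, was at 48.9 CPM in liver, 103 in spleen and 0 in bone marrow cDC1-like cells, against 1.05, 0.621 and 0.248 CPM in other cells. With 3 counts set as the floor in bone marrow, the ratio was 3.71 for liver and 7.85 for spleen. The lower limits of the counting intervals were smaller, at 2.99 for liver over bone marrow and 6.25 for spleen over bone marrow. Cxcl9 was seen in 36 of 466 liver, 21 of 117 spleen and 0 of 39 marrow cells. A share like that of liver would give few cells among 39, so its absence in marrow is not firm. Dnase1l3, a secreted DNase of dendritic cells and macrophages, was at 188 CPM in liver, 226 in spleen and 39.5 in bone marrow cDC1-like cells, against 9.26, 3.14 and 0.574 CPM in other cells. By summed UMIs, Cxcl9 and Dnase1l3 were shared by liver and spleen and low in bone marrow. Other genes high in spleen rested on few cells: 1 cell held all Prss34 and Mcpt8 UMIs and 96.0% of those of Fam155a.

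Bone marrow, with 39 cells, stood apart by Vim, Lgals1, Ms4a6c and Runx2. Vim, the intermediate filament vimentin, was at 383 CPM in liver, 482 in spleen and 1059 in bone marrow cDC1-like cells, against 357, 283 and 392 CPM in other cells, and was seen in 324 of 466 liver, 94 of 117 spleen and 34 of 39 marrow cells. Lgals1, galectin-1, was at 312 CPM in liver, 358 in spleen and 879 in bone marrow cDC1-like cells, against 668, 522 and 701 CPM in other cells. It was seen in 294 of 466 liver, 93 of 117 spleen and 26 of 39 marrow cells, so its detection was not highest in marrow. A single marrow cell held 18.5% of the marrow Lgals1 UMIs, and without it the level was 745 CPM. Ms4a6c, a membrane protein of monocytic cells, was at 95.2 CPM in liver, 45.7 in spleen and 215 in bone marrow cDC1-like cells, against 99.6, 35.1 and 59.2 CPM in other cells. The ratio of liver over bone marrow was 0.362 (95% interval 0.316 to 0.417) for Vim and 0.355 (95% interval 0.305 to 0.414) for Lgals1. Runx2, a factor that plasmacytoid dendritic cells also use, was at 70.5 CPM in liver, 26.5 in spleen and 237 in bone marrow cDC1-like cells, against 86.2, 81.0 and 118 CPM in other cells, and was seen in 75 of 466 liver, 10 of 117 spleen and 11 of 39 marrow cells. A single marrow cell held 33.3% of the marrow Runx2 UMIs and 22.4% was the largest share of 1 cell for Ms4a6c. Siglech, a lectin of plasmacytoid cells, was at 6.57 CPM in liver, 0 in spleen and 52.7 in bone marrow cDC1-like cells, against 9.16, 7.27 and 4.20 CPM in other cells, with 66.7% of the marrow UMIs in 1 of 2 cells.

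Several genes were highest in liver and lower in both other tissues. Hdac9, a histone deacetylase, was at 1153 CPM in liver, 433 in spleen and 316 in bone marrow cDC1-like cells, against 107, 52.2 and 49.3 CPM in other cells. Entpd1, which degrades extracellular ATP, was at 150 CPM in liver, 45.7 in spleen and 13.2 in bone marrow cDC1-like cells, against 23.5, 17.0 and 17.8 CPM in other cells. Dapk1, a kinase, was at 320 CPM in liver, 77.0 in spleen and 70.3 in bone marrow cDC1-like cells, against 21.6, 19.1 and 20.01 CPM in other cells. The ratio of liver over bone marrow was 3.64 (95% interval 2.89 to 4.67) for Hdac9, 11.4 (95% interval 3.86 to 55.2) for Entpd1 and 4.55 (95% interval 2.79 to 7.98) for Dapk1. The maturation list also summed 1.98 times as high in liver as in bone marrow (1.60 to 2.49), and 2.38 times in the other cells. In cDC1-like cells 8 of its 14 genes compared were 2-fold higher, against 12.7% of all genes. Its marrow sum was only 85 UMIs, with 10 of the 21 genes at 0.

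**Figure D3:**
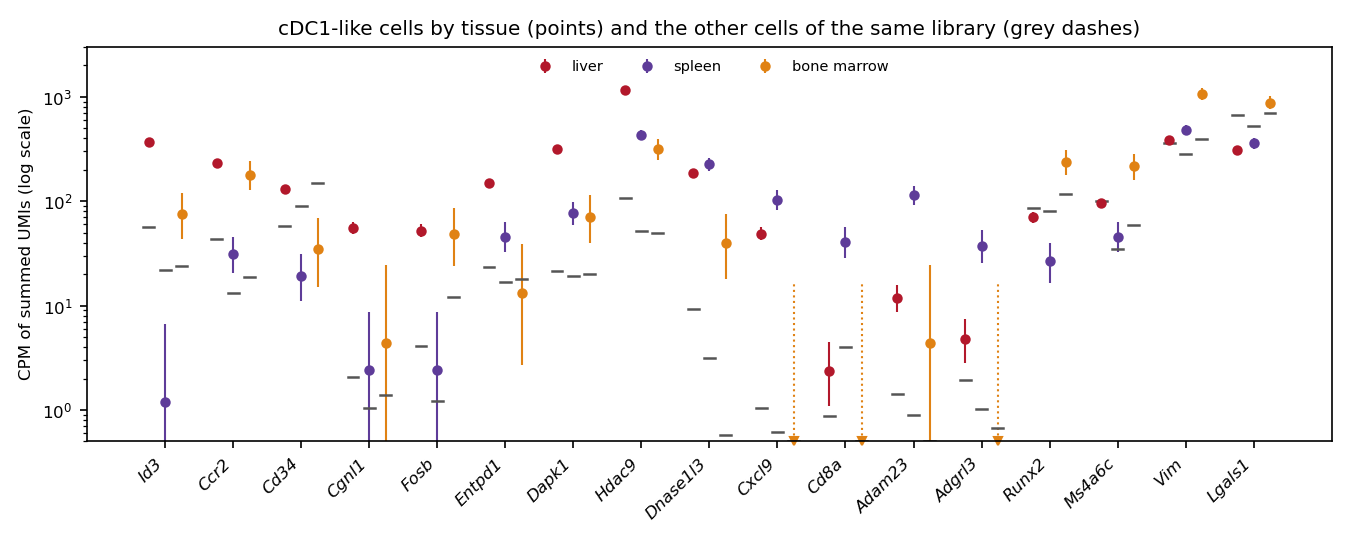
CPM of summed UMIs (log scale) of 17 genes named for tissue differences in cDC1-like cells of liver, spleen and bone marrow (points, exact 95% Poisson intervals). Grey dashes are the other kept cells of the same library, and triangles with dotted lines mark 0 UMIs and the upper limit; among cDC1-like cells Id3 and Cd34 are highest in liver, Cd8a and Adam23 in spleen, and Vim and Lgals1 in bone marrow.

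The share of cells with G2/M transcripts was lower among cDC1-like cells than among the other sorted cells of each tissue. After thinning to 5000 UMIs, at least 2 UMIs of 20 G2/M genes were present in 33.7% of liver cDC1-like cells (29.2% to 38.5%, 139 of 412), 53.2% of spleen cells (42.6% to 63.6%, 50 of 94) and 60.0% of marrow cells (36.1% to 80.9%, 12 of 20). The other kept cells had 90.3%, 89.3% and 90.9%. Thinning left out 54, 23 and 19 cDC1-like cells, and the unthinned shares were 38.8%, 49.6% and 46.2%, against 76.5%, 73.6% and 83.3% in other cells. Liver was lowest at each depth, but its interval was apart from that of spleen only at 5000 UMIs, and the spleen and marrow intervals overlapped at every depth. Mki67, a marker of cycling cells, was seen in 30.3% of liver, 39.3% of spleen and 38.5% of marrow cDC1-like cells before thinning.

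**Figure D4:**
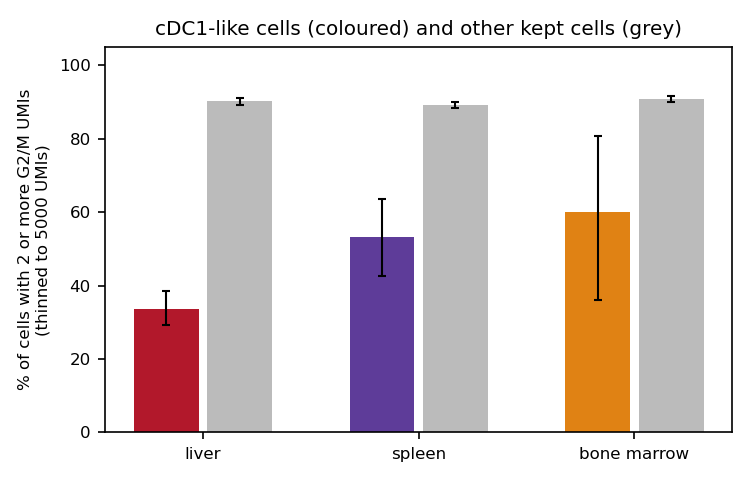
Share of cells (%) with at least 2 UMIs of 20 G2/M genes after thinning to 5000 UMIs, in cDC1-like cells (coloured) and other kept cells (grey) of each tissue, with exact 95% binomial intervals. cDC1-like cells are at 33.7% in liver, 53.2% in spleen and 60.0% in bone marrow, below the other kept cells, which lie between 89.3% and 90.9%.

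Xcr1 divided the cells further. It was seen in 70.4% of liver (66.0% to 74.5%), 73.5% of spleen (64.5% to 81.2%) and 43.6% of marrow cDC1-like cells (27.8% to 60.4%). At 2500 UMIs per cell the shares were 50.2% (45.6% to 54.9%), 48.7% (39.4% to 58.1%) and 29.7% (15.9% to 47.0%). At that depth the marrow interval overlapped those of liver and spleen. A cell with no Xcr1 UMI may still express it. The sides had like depth, with medians of 7540.5 UMIs in Xcr1-positive and 7208.5 in Xcr1-negative liver cells, 6166.5 and 6093 in those of spleen, and 4918 and 5402.5 in those of bone marrow.

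The 20 other cDC1 genes summed higher on the Xcr1-positive side, 1.37-fold in liver (1.34 to 1.40), 1.10-fold in spleen (1.04 to 1.16) and 2.00-fold in bone marrow (1.82 to 2.20). Class II genes had ratios of 1.28, 1.22 and 1.72. S phase genes lay lower on the Xcr1-positive side, with ratios of 0.785 in liver, 0.705 in spleen and 0.170 in bone marrow (0.108 to 0.256). G2/M genes had ratios of 0.967 (0.915 to 1.02), 0.904 (0.808 to 1.01) and 0.198 (0.148 to 0.260), so their intervals excluded 1 in bone marrow alone, where 17 cells stood against 22. Plasmacytoid genes had ratios of 0.573 (0.519 to 0.633), 0.845 (0.634 to 1.14) and 0.332 (0.210 to 0.505).

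Few single genes were 2-fold apart in all 3 libraries: of 3138 genes, 1 was higher (0.0319%) and 2 were lower (0.0637%) on the Xcr1-positive side. The higher one is Xcr1, which defines the split, and the lower ones are Gria3 and Ms4a6c. The genes named below as higher fell short of 2-fold in spleen, at 1.78-fold for St6gal1 and 1.65-fold for Cd81 with 10 CPM added. St6gal1, a sialyltransferase, was at 109 CPM in Xcr1-positive and 30.5 CPM in Xcr1-negative liver cells, 122 and 64.3 CPM in those of spleen, and 102 and 13.4 CPM in those of bone marrow. Cd81, a tetraspanin, was at 135 CPM in Xcr1-positive and 58.3 CPM in Xcr1-negative liver cells, 212 and 124 CPM in those of spleen, and 128 and 46.8 CPM in those of bone marrow. Both were higher on the Xcr1-positive side in each library. Gria3, a glutamate receptor subunit, was at 12.1 CPM in Xcr1-positive and 153 CPM in Xcr1-negative liver cells, 15.0 and 51.5 CPM in those of spleen, and 0 and 388 CPM in those of bone marrow. Gria3 was seen in 22 of 466 liver, 6 of 117 spleen and 5 of 39 marrow cells. Its difference rested on few cells. In liver 1 cell held 75 of the 165 Xcr1-negative UMIs, and in spleen 1 cell held all 12 of them. In bone marrow 1 cell held 44.8% of the marrow UMIs. Without that cell all marrow cDC1-like cells stood at 151 CPM, against 255 CPM with it. Ms4a6c was at 42.2 CPM in Xcr1-positive and 229 CPM in Xcr1-negative liver cells, 33.4 and 77.2 CPM in those of spleen, and 51.2 and 301 CPM in those of bone marrow. Lgals1 was at 201 CPM in Xcr1-positive and 591 CPM in Xcr1-negative liver cells, 296 and 519 CPM in those of spleen, and 384 and 1137 CPM in those of bone marrow. Ms4a6c and Lgals1 were thus both higher in marrow cells and higher in Xcr1-negative cells, the side that most marrow cells were on.

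**Figure D5:**
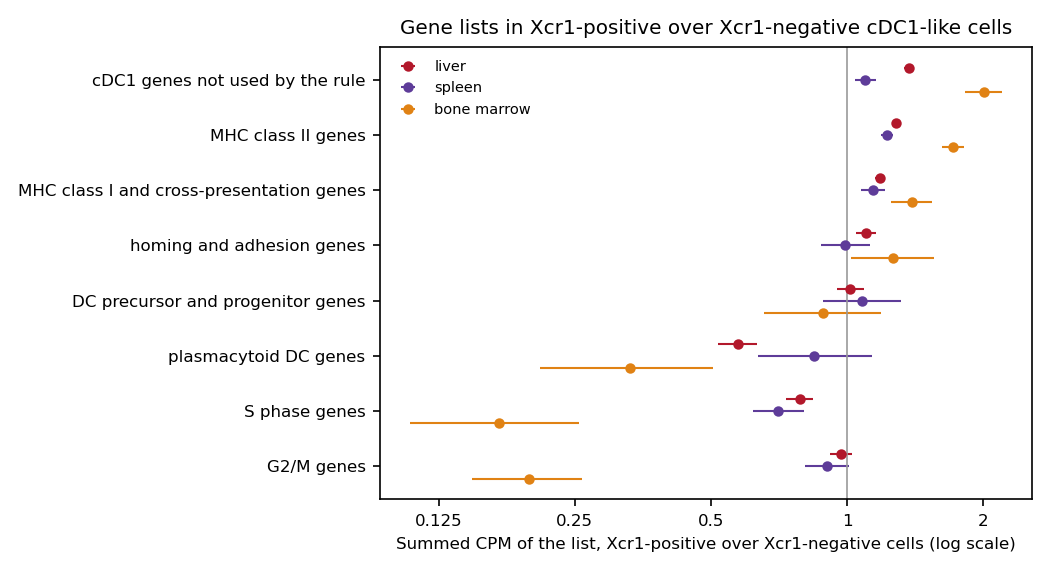
Summed CPM of gene lists in Xcr1-positive over Xcr1-negative cDC1-like cells (log scale) by tissue, with exact 95% intervals. cDC1 and MHC class II genes lie above 1 in each tissue, S phase genes below 1, and the bone marrow ratios of these lists are the furthest from 1.

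The nearest populations were taken by markers, with Cd79a, Elane and Camp at 0. Cells with Siglech, Bst2 and Tcf4, the plasmacytoid profile, numbered 49 in liver, 87 in spleen and 56 in bone marrow. Cells with Csf1r and Ly6c2 but no Clec9a, the monocytic profile, numbered 31, 15 and 10. Batf3 was at 271 CPM in liver, 260 in spleen and 246 in bone marrow cDC1-like cells, against 2.26, 1.49 and 2.17 CPM in the plasmacytoid-profile cells. Ly6d, a surface protein of plasmacytoid and lymphoid cells, was at 15.2 CPM in liver, 1.203 in spleen and 4.39 in bone marrow cDC1-like cells, against 1145, 701 and 1216 CPM in the plasmacytoid-profile cells. Itgae, the integrin chain CD103, was at 415 CPM in liver, 260 in spleen and 184 in bone marrow cDC1-like cells, against 0, 0 and 0 CPM in the monocytic-profile cells. F13a1, a coagulation factor subunit made by monocytes, was at 1.31 CPM in liver, 1.203 in spleen and 61.5 in bone marrow cDC1-like cells, against 183, 274 and 354 CPM in the monocytic-profile cells. The summed F13a1 level of marrow cDC1-like cells lay between that of the other cDC1-like cells and that of the monocytic-profile cells. The sum alone does not show how many marrow cells held F13a1, so it may rest on few of them.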

How the data were processed

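The deposited matrices hold unnormalised UMI counts over 32285 genes. For the 3 tissues the authors made these counts with Cell Ranger 7.0.0, per the file headers, and the submitters' processing notes name mm10. Whether intronic reads were counted is not given in the sources used here. Cells were filtered and chosen as described above. The members and gene lists were chosen with earlier results of these data known. Counts were summed over cells of a library. Named genes were the 25 with the largest smallest fold against other cells at 50 CPM or more, the 10 a direction and tissue pair with the largest near limit of the 95% interval, the 10 a direction of the Xcr1 split, and members of lists described. Ribosomal protein and mitochondrial genes were not named. Doublets were scored with Scrublet in scanpy 1.11.5 (expected rate 0.8% per 1000 cells) and were kept, with removal as an alternative. TMM factors came from edgeR 4.0.16 (R 4.3.3), and other steps used numpy 2.4.6, scipy 1.17.1 and pandas 2.3.3. Interval and thinning steps were tested on simulated data. The E19 and labelled P2 libraries entered no comparison.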

Additional observations from a re-analysis of the deposited data

Results flagged for a closer look

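The 3 libraries outside the tissue comparisons also held a few cells that met the rule. In the library labelled E19 (embryonic day 19, batch 2), 7 of 10725 kept cells met it, a share of 0.0653% (95% interval 0.0262% to 0.134%), above the 0.0280% that a count of 3 cells gives. These cells held H2-Ab1 at 1472 CPM, against 5.02 CPM in the other E19 cells, and Xcr1 was seen in none of the 7. The labels of E19 disagree on its tissue, with bone marrow in one field and fetal liver in another. In tube 2 of the Tppp3CreER LSLTdTomato pups given tamoxifen at P0, where marrow and spleen were mixed, 7 of 2473 kept cells met the rule, a share of 0.283% (0.114% to 0.582%), and Xcr1 was seen in 5 of them. In tube 1, 2 of 2722 cells met it, which is under the limit of 3 counts.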

How the results depend on the processing

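The share of kept cells in liver was 9.93% with cells thinned to 5000 UMIs, 7.01% at 2500 UMIs, 6.93% with no cell filter, 7.21% with 2 or more Clec9a UMIs, 5.82% with Xcr1 required and 10.7% with Cd79a, Elane and Camp allowed. In spleen it was 0.874% at 2500 UMIs and 0.951% both with 2 or more Clec9a UMIs and with Xcr1 required. In bone marrow it was 0.320% at 5000 UMIs, 0.300% at 2500 UMIs, 0.351% with 2 or more Clec9a UMIs and 0.260% with Xcr1 required. With at least 50 UMIs per gene, 338 genes were higher and 58 lower in liver over spleen, 655 and 264 in liver over bone marrow, and 104 and 95 in spleen over bone marrow. With no filter on low counts the numbers were 3883 and 1558, 5842 and 1460, and 3340 and 1754. Among Xcr1-positive cells 2134 genes were higher in liver over bone marrow and 696 in spleen over bone marrow. In spleen over bone marrow TMM scaling left 199 lower, and cells with fewer than 2 G2/M UMIs gave 235 higher and 224 lower. Without the highest Scrublet scores 40.5% of the spleen over bone marrow calls were higher, against 52.3%. The G2/M share in liver was 26.0% at 2500 UMIs, 38.8% unthinned and 54.1% with 1 UMI enough. It was 35.0% at 2500 UMIs and 68.1% with 1 UMI enough in spleen, and 90.0% with 1 UMI enough in bone marrow. With 1 CPM added, 2 genes were higher on the Xcr1-positive side, Xcr1 itself among them. Among Xcr1-positive cells the log2 ratio of spleen over bone marrow turned to 0.063 for Emb and 0.87 for Bach2. Without the cell that held most of its UMIs, an alternative chosen after seeing the data, the log2 ratio of liver over spleen for Fam155a turned to 0.59. For single genes 269 other values stayed within the counting interval (tissue pairs) or 0.5 log2 units (against other cells) of the reported one, and 59 moved further. The cause of these shifts was not tested. With 39 cells, bone marrow limits what can be read. No paired analysis was possible because each tissue is 1 library.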
